A study of Mus musculus with 23 samples.

Results

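The nuclear genes of oxidative phosphorylation encode most subunits of the respiratory chain and of ATP synthase, and their read counts were followed here in 3 neuronal populations of the mouse hippocampus. The set was defined by gene symbol alone, with no measured value. It took in every protein-coding gene whose symbol starts with Ndufa, Ndufb, Ndufc, Ndufs, Ndufv, Uqcr, Cox4, Cox5, Cox6, Cox7, Cox8 or Atp5, and Sdha, Sdhb, Sdhc, Sdhd and Cyc1. This gave 94 of the 45706 gene IDs in the count table. There were 36 subunits of complex I, 8 assembly factors of complex I that share the Ndufa prefix, 4 subunits of complex II, 9 of complex III, 18 of complex IV and 16 of complex V. The other 3 were Atp5s, Cox7a2l and Ndufa4l2, which are related to these complexes or subunits. Of the 18 complex IV genes, 11 are broadly expressed and 7 are isoforms known from restricted tissues (Cox4i2, Cox6a2, Cox6b2, Cox7a1, Cox7b2, Cox8b and Cox8c). In all, 93 of the 94 genes had enough reads to be tested. Cox8c had 0 reads in all 23 libraries, which allows a level of up to 0.00759 to 0.0111 counts per 1000000 gene reads (CPM) when 3 reads per group are taken as the limit.

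The libraries were made from polyA RNA of hippocampal cells. Those titled CamK and Grik are labelled as excitatory pyramidal cells and those titled SST as somatostatin-positive interneurons, and the series names CA1 and CA3 for its excitatory populations. Each population was labelled wild type (WT) or conditional knockout (cKO) for SLM2, the RNA-binding protein encoded by Khdrbs3. The groups were 4 WT CamK, 3 CamK cKO, 4 WT Grik, 4 Grik cKO, 4 WT SST and 4 SST cKO libraries. The sources used here give no strain, age, driver allele, deleted exons or way of isolating the cells. Nothing in the labels says that replicates came from separate animals, so the p-values measure only the spread between these libraries, which may be technical. In such bulk samples, fewer cells of a type and less RNA per cell cannot be told apart.

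Complex I (NADH dehydrogenase) and complex II (succinate dehydrogenase) pass electrons from NADH and succinate to ubiquinone, complex III passes them on to cytochrome c, and complex IV passes them to oxygen. Complexes I, III and IV pump protons across the inner mitochondrial membrane, and complex V (ATP synthase) uses the returning protons to make ATP. Every complex but II also holds subunits encoded by the mitochondrial genome, so the 2 genomes must be expressed together. Firing neurons draw most of their ATP from this pathway, and fast-spiking interneurons are known for their many mitochondria.

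Promoter sequence is shown for 3 genes, because a shared core motif of the factor NRF1, a known activator of respiratory chain genes, was the commonest of the 4 motifs searched. In each complex, the gene with the largest tested rise in SST over Grik that holds the motif before its start was taken, and complexes III and IV had none. Uqcrc1 and Atp5g3, the largest risers of complexes III and V, hold it only after the start, and Uqcr11 and Cox6a1 hold it but did not pass in SST over Grik. The stretches are 5′ to 3′ on the strand of the gene, from RefSeq on GRCm38.p6, and the capitals mark the match to GCGCANGCG on either strand, with 2 overlapping matches in Ndufa11. The Ndufa11 stretch is chr17:56717682-56717731 on the plus strand, bases -80 to -31 from the start, the Sdha stretch is chr13:74350241-74350358 on the minus strand, bases -118 to -1, and the Atp5h stretch is chr11:115420032-115420080 on the minus strand, bases -161 to -113.
Ndufa11: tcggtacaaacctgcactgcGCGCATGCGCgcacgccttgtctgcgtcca
Sdha: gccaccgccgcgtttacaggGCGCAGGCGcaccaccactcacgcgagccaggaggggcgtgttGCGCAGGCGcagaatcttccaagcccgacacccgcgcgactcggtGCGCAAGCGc
Atp5h: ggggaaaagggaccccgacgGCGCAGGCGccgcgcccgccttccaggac

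Promoters of 300 bases, 250 before and 50 after the start, were matched for 76 of the 94 genes. The NRF1 core was found in 22 of the 76 (28.9%), against 7.03% of all 27025 genes with a promoter and 13.5% of the 11901 protein-coding genes among them that were tested here. The GABPA core CCGGAAG was found in 18 (23.7%, against 9.93% and 17.4%), the YY1 core AAGATGGCG in 8 (10.5%, against 1.64% and 3.04%) and the estrogen-related receptor core TCAAGGTCA in 2 (2.63%, against 0.466% and 0.336%). All were searched on both strands with overlapping matches allowed. Genes that were higher in SST than in Grik held the NRF1 core in 13 of 43 promoters (30.2%) and the others in 9 of 33 (27.3%). The 43 include Cox8b, which holds no NRF1 core and was tested only because it is high in SST. These matches describe letters in a window and were not tested as binding sites. Genes without a promoter here include Atp5a1, Cox4i1, Cox6a2, Cyc1, Sdhc and Uqcrc2.

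Gene totals were 87612006 to 112993538 reads per library, and replicates differed by more than sampling noise in every group (chi-square per degree of freedom 8.06 to 202). Pyramidal and interneuron markers matched the labels of the populations: in WT libraries, summed pyramidal markers averaged 5805 CPM in CamK, 7246 in Grik and 858 for the SST cells, and summed interneuron markers 99.5, 77.7 and 6339. Summed CA1 markers were 1129, 75.4 and 395 CPM in the same order and summed CA3 markers 176, 849 and 96.9. Markers of the dentate gyrus, which neither pyramidal label names, summed to 259, 206, 97.9 and 152 CPM in the WT CamK libraries. They were 140 to 150 CPM in WT Grik and 27.6 to 38.8 in WT SST. Pvalb, the marker of the parvalbumin class of interneurons, was 140 ± 25.3 CPM in WT SST and 1.05 in both pyramidal WT groups. Khdrbs3 was 373 ± 27.0 CPM (SD, n = 4) in WT CamK and 278 ± 25.1 (n = 3) in CamK cKO, 130 ± 8.31 and 93.8 ± 10.5 (n = 4 each) in SST, and 336 ± 8.61 and 414 ± 18 (n = 4 each) in Grik. The target was thus higher in the Grik libraries labelled cKO than in their WT, against the label and without overlap (edgeR's quasi-likelihood test, log2 fold change 0.30, unadjusted p = 0.000449, adjusted p = 0.499). In SST the fall passed the adjusted threshold of 0.05 (log2 fold change -0.47, adjusted p = 0.0309) and in CamK it did not (-0.42, adjusted p = 0.114). Markers of non-neuronal cells moved with the populations: the mean log2 CPM of a list of 28 genes was -0.59 to 0.58 in WT CamK, 1.69 to 2.16 in WT Grik and 2.03 to 2.93 in WT SST. Its cell types did not share 1 order: summed oligodendrocyte markers averaged 189, 806 and 489 CPM in these groups, those of pericytes and smooth muscle 13.4, 35.5 and 25.6, those of astrocytes 77.0, 104 and 239, and those of endothelium 0.831, 2.01 and 14.3.

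Between the WT populations, the genes of oxidative phosphorylation were more often higher than lower in SST interneurons against either pyramidal population. In CamK against Grik more were higher too, but this order turned with the non-neuronal score as a covariate (2 higher, 6 lower) and with an offset for transcript length (11 higher, 18 lower). That score did not overlap between the WT libraries of CamK and Grik. Of the 93 tested, 57 were higher in SST than in Grik and 0 were lower at an adjusted p under 0.05, with a median log2 fold change of 0.25. The background was 29.2% of all 18823 genes tested higher and 28.1% lower, with a median of 0.03. Against CamK, 38 were higher in SST and 9 lower (median 0.11), where 30.5% of all genes were higher and 29.5% lower (median 0.02). Of CamK against Grik, 33 were higher in CamK and 8 lower (median 0.15), where 20.9% of all genes were higher and 21.1% lower (median 0.01). Cox6b2, Cox8b and Cox4i2, which are near 0 in both populations, are among these 8. The SST counts also hold Cox8b and Cox4i2, which were tested only because they are high in SST. The 3 comparisons share their WT libraries, so their counts are not independent of each other.

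For the 57 genes higher in SST than in Grik, the libraries of both groups did not overlap in 43 and overlapped in 14, where 85.9% of all genes called higher did not overlap. In SST against CamK they did not overlap for 33 of the 38 higher and 5 of the 9 lower genes (86.9 and 86.2% of all genes so called). In CamK against Grik they did not overlap for 6 of the 33 higher and 6 of the 8 lower (82.2 and 84.4%), so most of the rises in CamK were of groups that overlapped. By means of WT libraries, 62 of 93 genes were highest in SST, 29 in CamK and 2 in Grik, while 40.5%, 31.5% and 28.0% of all genes tested were highest in these populations. Cox8b and Cox4i2, tested only because they are high in SST, are counted among the 62. They are also among the genes higher in SST without overlap in both SST comparisons. Grik was lowest for 63 of 93, against 30.5% of all genes. The order SST, then CamK, then Grik was the commonest, with 42 genes (45.2%) against 19.3% of all genes.

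**Figure D1:**
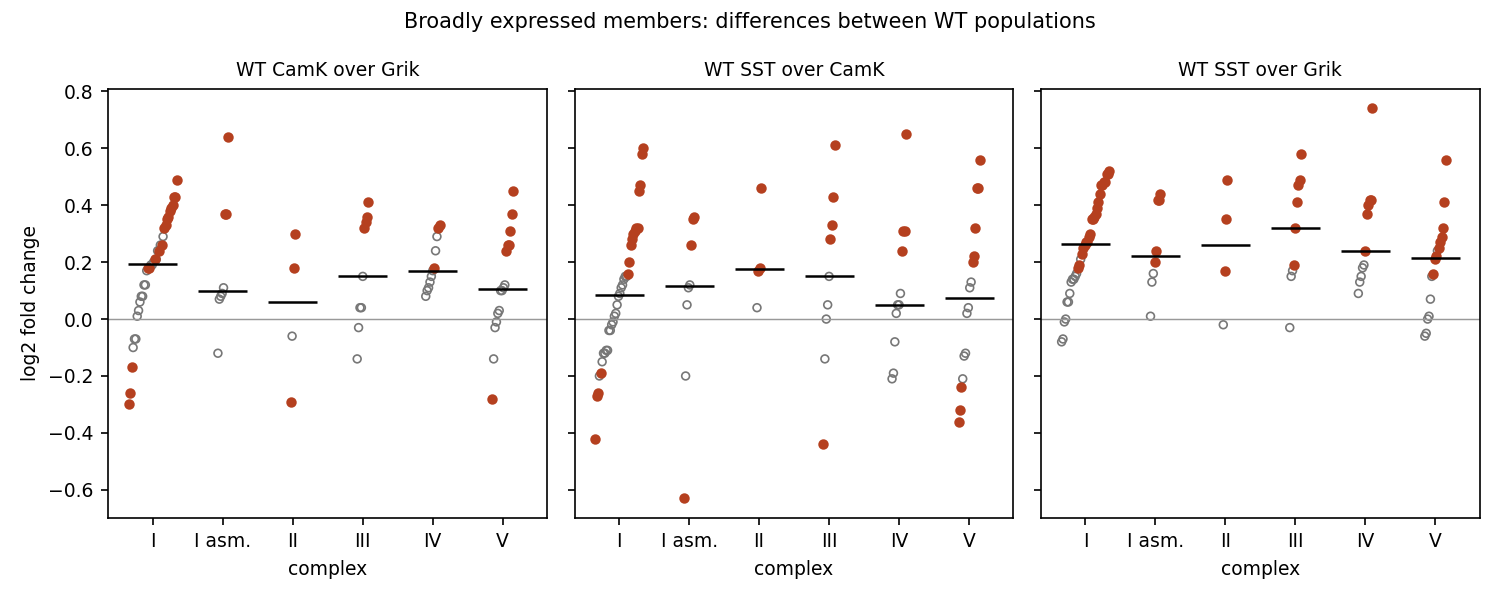
Log2 fold change of each gene (points) by complex in the WT comparisons, with the restricted isoforms of complex IV left out. Filled points passed an adjusted p of 0.05 and lines are medians, and the medians of SST against Grik lie above 0 in every complex.

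These counts moved with the setting of the fit. Without scaling factors between libraries, 26.9% of all genes were higher and 16.9% lower in CamK than in Grik, and 35.8% higher and 22.8% lower in SST than in Grik, and the median of all genes moved to 0.10 and 0.16. With the non-neuronal score as a covariate, 2 genes were higher and 6 lower in CamK than in Grik (10.7 and 9.66% of all genes), 20 were higher and 0 lower in SST than in CamK (15.8 and 18.2%), and 54 were higher and 0 lower in SST than in Grik (27.4 and 27.7%). Among the genes described below, this fit ended the calls of Ndufs3, Ndufs7, Ndufa2, Ndufa7, Ndufaf8, Sdhb, Sdhc, Uqcr11, Cox5b, Cox6b1, Atp5g2 and Atp5k in CamK against Grik. In SST against CamK it ended those of Ndufv2, Ndufa4, Ndufa5, Ndufaf8, Sdhb, Sdhc, Uqcr11, Cox6b1, Cox7b, Atp5e and Atp5g2. The score was -0.59 to 0.58 in WT CamK, 1.69 to 2.16 in WT Grik and 2.03 to 2.93 in WT SST. It did not overlap between WT CamK and the others, so score and population cannot be told apart in the CamK comparisons. The part of non-neuronal cells in these comparisons was not tested.

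Summed over its subunits, complex V was higher in every WT SST library than in any pyramidal WT library. The sum was 7389 ± 228 CPM in WT SST (7105 to 7643), 5879 ± 317 in WT CamK and 6104 ± 407 in WT Grik (n = 4 each), and the highest pyramidal libraries, at 6242 and 6710, stayed below the lowest SST library. Complex I summed to 4459 ± 228 CPM in WT SST, 4002 ± 316 in WT CamK and 3704 ± 302 in WT Grik. Complex II summed to 1119 ± 22.4, 896 ± 31.8 and 970 ± 53.7 in the same order, complex III to 1992 ± 139, 1663 ± 118 and 1563 ± 103, and complex IV to 2832 ± 184, 2559 ± 178 and 2261 ± 300. All 94 genes together took 1.88 ± 0.0479% of gene reads in WT SST, 1.54 ± 0.0759% in WT CamK and 1.41 ± 0.0944% in WT Grik. By their means, complexes II and V were higher in Grik than in CamK and the other 3 were lower, and no Grik library fell to the highest CamK library, at 917 CPM, in complex II.

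**Figure D2:**
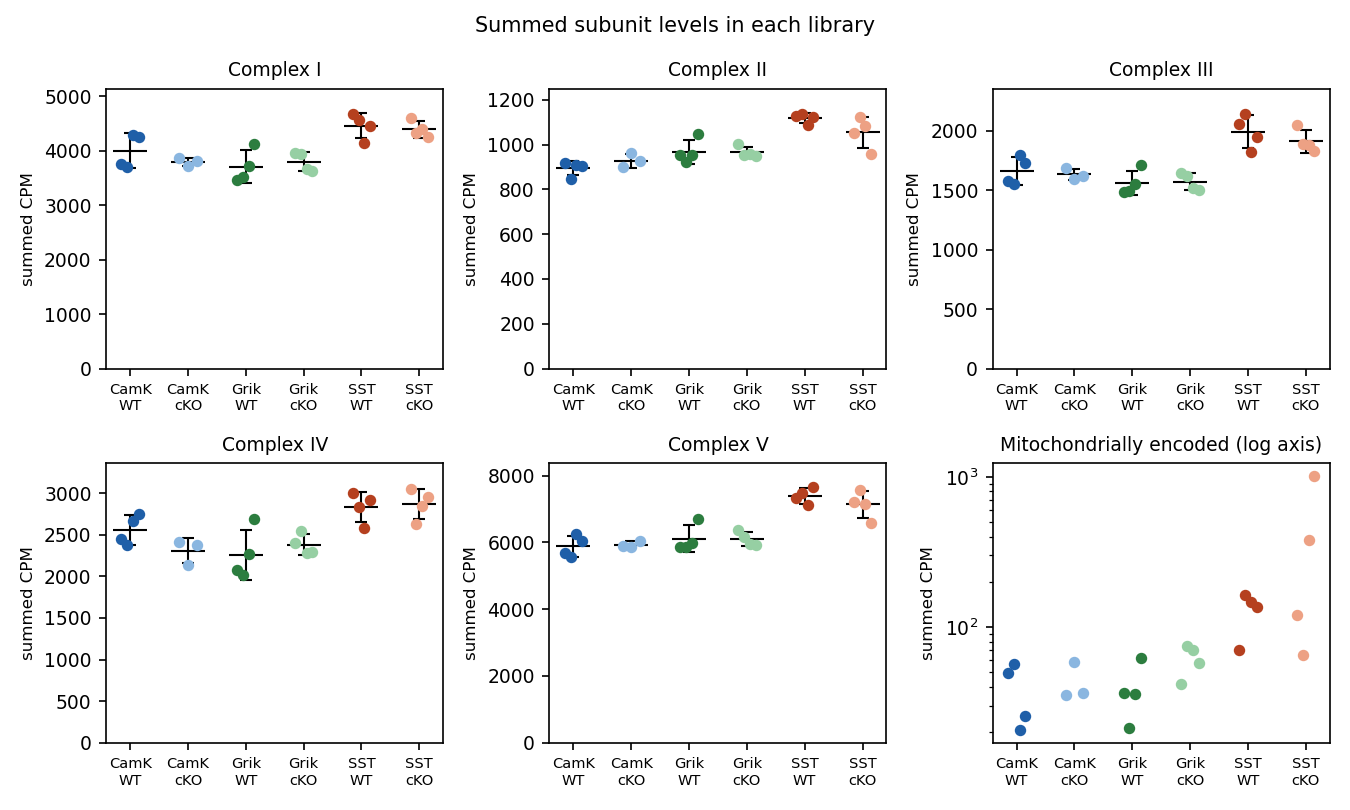
Summed CPM of the subunits of each complex in every library (points), by population and genotype, with bars for mean and SD. For complex V the WT SST libraries, at 7105 to 7643 CPM, lie above all WT pyramidal libraries, the highest of which is at 6710 CPM.

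Levels per kb of annotated transcript differed more between genes than between populations. ATP synthase led: over the 12 WT libraries the highest levels were those of Atp5b with 1068 CPM per kb and Atp5a1 with 617, the catalytic and the noncatalytic head subunits. Ndufa4 (553), Atp5g3 (541), Cox4i1 (536), Cox6b1 (407), Atp5h (407), Cox5a (382), Cox8a (380) and Uqcrh (344) came next. The median over complex IV was 327 CPM per kb in WT CamK, 279 in WT Grik and 319 in WT SST, and over complex I 114, 102 and 121. Assembly factors of complex I had lower medians, of 22.4, 21.6 and 24.8. Such levels depend on the annotated length, and Ndufb2, the lowest in complex I at 5.56 CPM per kb in WT CamK, has an annotated transcript of 4371 bases.

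The core of complex I holds the subunits that carry the flavin and iron-sulfur clusters from NADH to ubiquinone. In SST against Grik 5 of 7 were higher and in SST against CamK 4 of 7, with 0 lower in both (71.4 and 57.1%, against 29.2 and 30.5% of all genes). Ndufv1, which holds the flavin and binds NADH (ENSMUSG00000037916, chr19:4007384-4012806, minus strand, GRCm38), was 204, 206, 238 and 224 CPM in WT CamK, 189, 212, 214 and 236 in WT Grik, and 296, 277, 259 and 253 in WT SST. Every WT SST library was above every WT pyramidal library. The log2 fold change was 0.32 (SE 0.075, adjusted p = 0.000775, edgeR) over CamK and 0.35 (SE 0.075, adjusted p = 0.000298) over Grik.

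Ndufs1, which holds iron-sulfur clusters of the electron path, was 221, 202, 208 and 203 CPM in WT CamK, 275, 251, 239 and 259 in WT Grik, and 277, 298, 304 and 276 in WT SST. CamK was the low group here, and no CamK library reached a Grik library. The log2 fold change of CamK over Grik was -0.30 (adjusted p = 0.00157, edgeR), that of SST over CamK 0.47 (adjusted p = 3.42e-06) and that of SST over Grik 0.18 (adjusted p = 0.0388), the last of which was lost in 15 of 35 alternative fits. Ndufv2, the partner of Ndufv1 in the NADH-binding arm, was higher in SST by 0.30 on the log2 scale over CamK and by 0.37 over Grik. Ndufs7 was higher in CamK and SST than in Grik (0.32 and 0.30, lost in 2 and 1 of the alternative fits), Ndufs3 in CamK than in Grik (0.21, lost in 3), and Ndufs8 passed in no comparison, with a log2 fold change of 0.01 for CamK over Grik, 0.05 for SST over CamK and 0.06 for SST over Grik.

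The 29 accessory subunits surround this core and serve its stability and assembly. In SST 18 of them were higher than in Grik and 0 lower, and 8 were higher and 4 lower than in CamK, while 13 were higher and 2 lower in CamK than in Grik. As shares these were 62.1%, 27.6% and 44.8% higher, against 29.2, 30.5 and 20.9% of all genes, so the share above CamK was near the background. Ndufa11, a membrane arm subunit whose promoter is printed above, was 137, 131, 121 and 123 CPM in WT SST and 75.6, 87.8, 92.5 and 103 in WT Grik. The groups did not overlap (log2 fold change 0.52, and 0.31 over CamK). Ndufc2, another membrane arm subunit, was higher in SST by 0.58 on the log2 scale over CamK and 0.51 over Grik.

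Several accessory subunits separated the pyramidal populations. Ndufs6, a zinc-binding subunit, was 59.5, 55.1, 66.1 and 69.1 CPM in WT CamK and 40.1, 38.8, 45.4 and 54.1 in WT Grik, so the lowest CamK library was above the highest Grik library (log2 fold change 0.49, adjusted p = 0.000239, edgeR). Ndufa7 and Ndufa2 were each higher in CamK by 0.43 on the log2 scale, and each call was lost in 1 of the alternative fits. Ndufa10 and Ndufa9 were lower in CamK than in Grik, by a log2 fold change of -0.26 and -0.17, the latter lost in 10 of the alternative fits. Both were higher in SST than in CamK. Ndufa5, an accessory subunit of the matrix arm, was 112, 99.5, 132 and 130 CPM in WT CamK and 83.4, 90.4, 79.9 and 101 in WT SST. CamK was the high group, with 1 library inside the SST range (log2 fold change of SST over CamK -0.42, adjusted p = 0.000649).

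Assembly factors build complex I without staying in it. Of the 8 in the set, 5 (62.5%, against 29.2% of all genes) were higher in SST than in Grik and 0 lower, with log2 fold changes of 0.44 for Ndufaf6 and 0.42 for Ndufaf5. Against CamK the same 2 were higher by 0.36 and 0.35. Ndufaf8 went the other way and was the largest fall of SST below CamK among the genes that passed. It was 7.2, 7.55, 8.66 and 10.6 CPM in WT CamK and 6.86, 4.76, 5.43 and 4.86 in WT SST, without overlap (log2 fold change -0.63, adjusted p = 0.00105, edgeR). It also had the largest rise of CamK over Grik among those that passed (0.64, adjusted p = 0.00166), and both calls were lost in 1 of the alternative fits, that with the non-neuronal score.

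Complex II links the respiratory chain to the citric acid cycle and is encoded in the nucleus alone. Sdha, the flavin-carrying catalytic subunit, was 506, 480, 498 and 481 CPM in WT CamK, 599, 576, 591 and 635 in WT Grik, and 680, 687, 671 and 662 in WT SST. The 3 populations formed separate steps. SST over CamK was 0.46 (adjusted p = 6.24e-07, edgeR), SST over Grik 0.17 (adjusted p = 0.0223) and CamK over Grik -0.29 (adjusted p = 0.000495). Of these, SST over Grik was lost in 5 of the alternative fits.

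Sdhc, a membrane anchor of complex II, took another order: 98.9, 90.6, 112 and 110 CPM in WT CamK, 78.8, 77.1, 81.4 and 96.4 in WT Grik, and 117, 117, 110 and 124 in WT SST. Grik was the low group and overlapped CamK in 1 library. SST over Grik was 0.49 (adjusted p = 3.48e-06, edgeR) and CamK over Grik 0.30 (adjusted p = 0.00167), while SST over CamK, at 0.18 (adjusted p = 0.0342), was lost in 8 of the alternative fits. Sdhb, the iron-sulfur subunit, was higher in SST by 0.17 on the log2 scale over CamK and 0.35 over Grik, and higher in CamK than in Grik by 0.18. Its calls of SST over CamK and of CamK over Grik were each lost in 5 of the alternative fits. Sdhd, the other anchor, passed in no comparison, with log2 fold changes of -0.06 for CamK over Grik, 0.04 for SST over CamK and -0.02 for SST over Grik.

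In complex III, 6 of 9 genes (66.7%, against 29.2% of all genes) were higher in SST than in Grik and 0 lower, and 4 (44.4%, against 30.5%) were higher and 1 lower than in CamK. Uqcrc1, a core subunit of the matrix side (ENSMUSG00000025651, chr9:108936633-108949623, plus strand), was 286, 296, 361 and 317 CPM in WT CamK, 295, 322, 331 and 341 in WT Grik, and 473, 602, 430 and 421 in WT SST. The lowest SST library was above every pyramidal library. Its log2 fold change was 0.61 (adjusted p = 1.41e-05, edgeR) over CamK and 0.58 (adjusted p = 3.16e-05) over Grik. The electron-carrying subunits followed: Uqcrfs1, the Rieske iron-sulfur protein, was higher in SST by 0.43 and 0.47 on the log2 scale, and Cyc1, cytochrome c1, by 0.28 and 0.32.

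Uqcr11, a small subunit of complex III, was the exception in SST. It was 119, 121, 153 and 150 CPM in WT CamK and 114, 98.9, 89.7 and 97.4 in WT SST, with no overlap. The log2 fold change of SST over CamK was -0.44 (adjusted p = 0.00109, edgeR), and CamK over Grik was 0.41, lost in 1 and 2 of the alternative fits.

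Among the 11 broadly expressed genes of complex IV, 6 were higher in SST than in Grik, 4 were higher in SST than in CamK and 3 in CamK than in Grik, and 0 were lower in any of these. The shares were 54.5, 36.4 and 27.3%, against 29.2, 30.5 and 20.9% of all genes, so those of the comparisons with CamK were near the background. Cox5a, a subunit of the matrix side, showed the largest rise of the broadly expressed subunits (ENSMUSG00000000088, chr9:57521274-57532426, plus strand). It was 207, 195, 213 and 228 CPM in WT CamK, 197, 181, 196 and 215 in WT Grik, and 372, 316, 296 and 338 in WT SST. The SST libraries stood clear of all pyramidal libraries, and the log2 fold change was 0.65 (SE 0.077, adjusted p = 7.33e-08, edgeR) over CamK and 0.74 (SE 0.077, adjusted p = 7.19e-09) over Grik. Its antisense neighbour Gm26631, which covers 12.8% of its exon bases, was at 0.0497, 0.0375 and 0.0426 CPM in the WT groups.

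The other broad subunits moved less, and their differences are given as log2 fold changes. Cox4i1, the regulatory subunit, was higher in SST than in Grik by 0.24 on the log2 scale (adjusted p = 0.0116, edgeR). The libraries of these groups overlapped, and the call was lost in 2 of the alternative fits. Cox5b was higher in SST and in CamK than in Grik, by 0.37 and 0.32, lost in 2 and 6 of the alternative fits. Cox7b and Ndufa4, now counted with complex IV, rose in SST by 0.31 each over CamK and by 0.42 and 0.40 over Grik. Cox6b1, near the cytochrome c side, was higher in SST by 0.24 over CamK and 0.42 over Grik, and in CamK by 0.18 over Grik, the last lost in 10 of the alternative fits and reversed to -0.06 (adjusted p = 0.329, edgeR) with an offset for transcript length. Cox7a2 and Cox8a passed in no comparison.

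**Figure D3:**
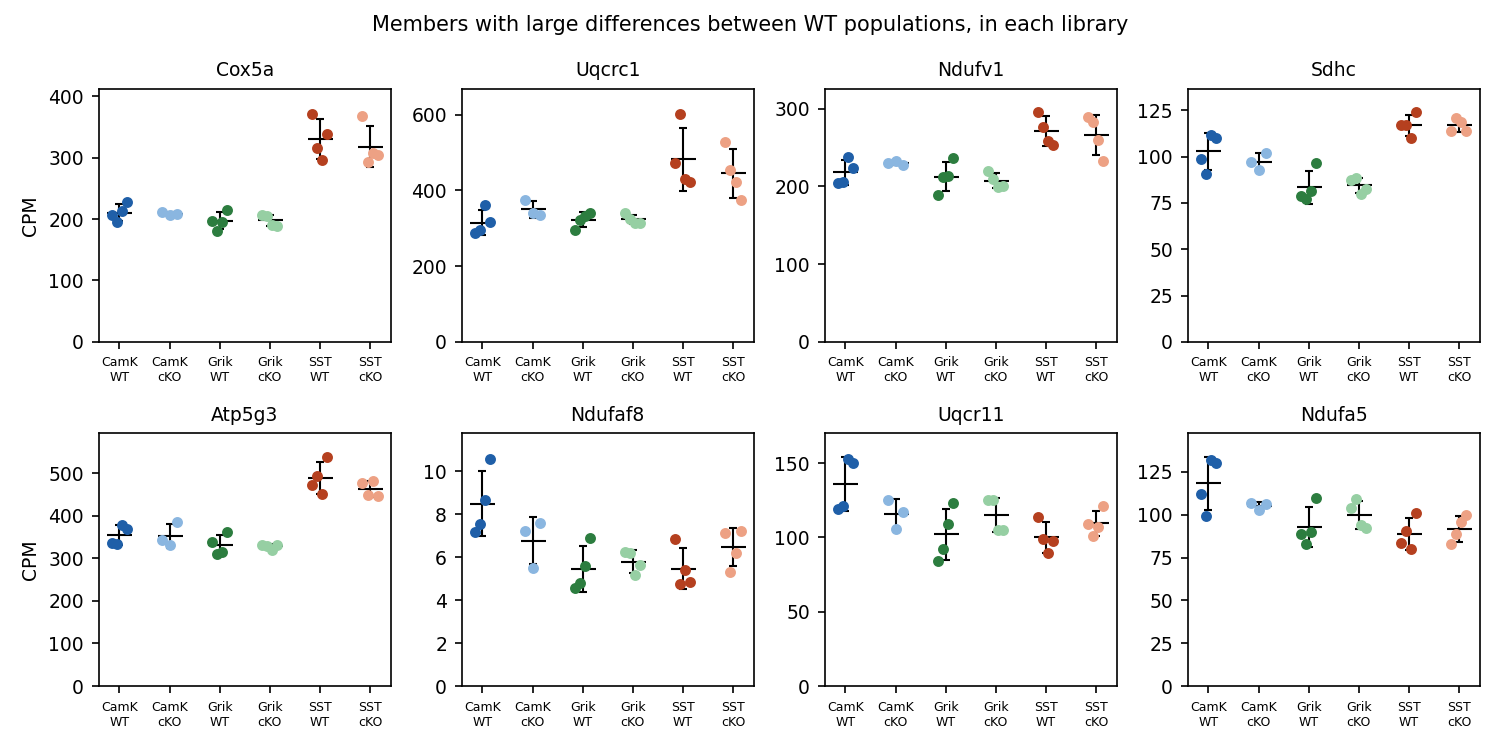
CPM of 8 genes in every library (points), by population and genotype, with bars for mean and SD. By WT means, Cox5a, Uqcrc1, Ndufv1 and Atp5g3 are highest in SST, and Ndufaf8, Uqcr11 and Ndufa5 are highest in CamK. In the cKO libraries, CamK overlaps another population for Ndufaf8, Uqcr11 and Ndufa5.

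The restricted isoforms gave the largest ratios of the whole set, and Cox6a2 was the only 1 of them above 2 CPM in a WT library. Cox6a2 encodes the heart and skeletal muscle form of a complex IV subunit whose broad form is Cox6a1 (Cox6a2: ENSMUSG00000030785, chr7:128205435-128206387, minus strand). It was 0.077, 0.188, 0.0565 and 0.0219 CPM in WT CamK, 0.126, 0.162, 0.149 and 0.176 in WT Grik, 16.1, 23.4, 17.2 and 17.0 in WT SST, and 19.9, 20.5, 20.6 and 24.8 in SST cKO. Its level was thus near 0 in all pyramidal WT libraries and at least 16.1 CPM in all SST libraries of both genotypes. Summed reads were 7464 in WT SST against 31 in WT CamK and 53 in WT Grik, a ratio of 219 (95% interval 154 to 322) and 131 (99.7 to 175). These exact Clopper-Pearson intervals cover counting error only. The tested log2 fold changes were 7.72 (SE 0.30, adjusted p = 1.98e-16, edgeR) and 6.90 (SE 0.28, adjusted p = 3.19e-16).

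Cox6a1 stayed the main form. It was 171, 161, 187 and 199 CPM in WT CamK, 128, 133, 171 and 206 in WT Grik, and 212, 183, 169 and 165 in WT SST, where the groups overlapped and SST over Grik was 0.19 (adjusted p = 0.18, edgeR). Per kb, Cox6a2 made up 7.89 ± 1.53% of the pair in WT SST (5.98 to 9.73%, n = 4) and 8.47 ± 1.34% in SST cKO, against 0.0426% in WT CamK and 0.0825% in WT Grik. Itgad covers 10.3% of the exon bases of Cox6a2 on the opposite strand and was 3.61 CPM in WT SST, 0.0441 in WT CamK and 0.168 in WT Grik. The strand setting of the counting is not given, so reads of the shared bases cannot be told apart.

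**Figure D4:**
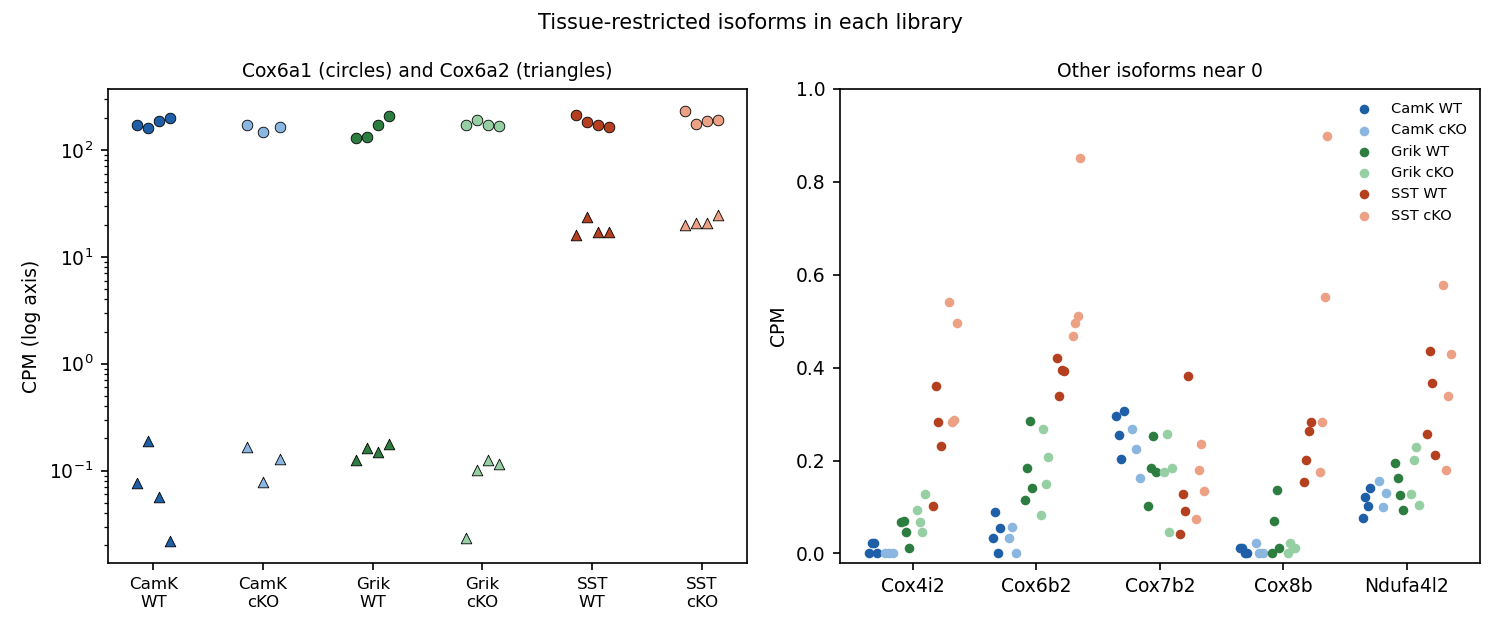
CPM of paired isoforms in every library, with Cox6a1 (circles) and Cox6a2 (triangles) on a log axis at the left, and 4 other restricted isoforms and Ndufa4l2 on a linear axis at the right, coloured by group. Cox6a2 is 16.1 to 24.8 CPM in SST libraries and near 0 in the pyramidal libraries, and no point at the right passes 1 CPM.

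The other restricted isoforms were close to the floor of the counting. Cox4i2 and Cox8b reached the level that the filter on low counts asks for in 7 and 8 SST libraries, but in 1 Grik library each and in 0 CamK libraries, so they were tested only because they are high in SST. Cox4i2, a form known from lung, had 97 reads summed over WT SST, 17 over WT Grik and 4 over WT CamK, a ratio of 22.0 (95% interval 8.34 to 82.5) over CamK and 5.29 (3.14 to 9.45) over Grik. In CamK cKO it had 0 reads, which allows up to 0.0111 CPM. Cox8b, a muscle form, had 91, 19 and 2 reads (41.4, interval 11.1 to 347, and 4.44, interval 2.69 to 7.71), and Cox6b2, a testis form, had 159, 63 and 16 (9.03, interval 5.39 to 16.2, and 2.34, interval 1.74 to 3.19). The calls of Cox4i2 and Cox8b in the SST comparisons are therefore not read as results, and without both genes 55 of 91 genes were higher in SST than in Grik and 36 than in CamK. Cox6b2 passed in SST against CamK but did not pass in SST against Grik. In CamK against Grik all 3 were lower in CamK, the calls of Cox4i2 and Cox8b being lost in 19 and 6 of 33 alternative fits. With the non-neuronal score as a covariate, none of these calls of Cox6b2, Cox8b and Cox4i2 in CamK against Grik or of Cox6b2 in SST against CamK passed. Cox7a1 lay between 0.587 and 1.35 CPM and passed in no comparison, and Cox7b2 stayed under 0.5 CPM in every WT group.

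Complex V makes ATP in a soluble F1 head that is driven by a rotating ring of c-subunits in the membrane. Of its 16 genes, 9 were higher in SST than in Grik and 0 lower, and 6 were higher and 3 lower in SST than in CamK. The shares higher were 56.2 and 37.5%, against 29.2 and 30.5% of all genes, so that over CamK was near the background. Atp5b, the catalytic subunit, was 1730, 1704, 1871 and 1758 CPM in WT CamK, 1867, 1882, 1893 and 2137 in WT Grik, and 2420, 2436, 2393 and 2457 in WT SST. The 4 SST libraries lay together above all others, with a log2 fold change of 0.46 (adjusted p = 7.04e-07, edgeR) over CamK and 0.32 (adjusted p = 0.000102) over Grik. CamK over Grik was -0.14 (adjusted p = 0.076).

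Atp5a1, the other large head subunit, was 1233, 1215, 1300 and 1210 CPM in WT CamK, 1474, 1491, 1447 and 1600 in WT Grik, and 1771, 1858, 1816 and 1884 in WT SST. It rose in 3 separate steps, as Sdha did. SST over CamK was 0.56 (adjusted p = 1.77e-07, edgeR), SST over Grik 0.29 (adjusted p = 0.00114) and CamK over Grik -0.28 (adjusted p = 0.00237). Atp5e, a small head subunit, was lower in SST than in CamK by a log2 fold change of -0.36 (adjusted p = 0.00663), and that of Atp5k, a membrane subunit, in CamK over Grik was 0.45.

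The c-ring is encoded by Atp5g1, Atp5g2 and Atp5g3, which give the same mature protein and differ in their targeting sequences. Atp5g3 (ENSMUSG00000018770, chr2:73908447-73911326, minus strand) was 335, 333, 379 and 369 CPM in WT CamK, 339, 310, 315 and 362 in WT Grik, and 471, 494, 451 and 538 in WT SST. All SST libraries were above all pyramidal libraries (log2 fold change 0.46, adjusted p = 1.69e-06, edgeR, over CamK and 0.56, adjusted p = 9.31e-08, over Grik). Atp5g2 was 44.8, 42.5, 53.1 and 55.1 CPM in WT CamK, 36, 39.9, 43.1 and 44.8 in WT Grik, and 41.4, 40.8, 36.5 and 38.1 in WT SST. It was highest in CamK, with SST over CamK at -0.32 (adjusted p = 0.00405, edgeR) and CamK over Grik at 0.26, the latter lost in 7 of the alternative fits, and Atp5g1 passed in no comparison. Per kb, the Atp5g3 share of the family was therefore 86.3 ± 0.952% in WT SST (85.2 to 87.5%), 80.9 ± 0.798% in WT CamK and 81.1 ± 1.45% in WT Grik, and the highest pyramidal WT libraries, at 81.7 and 83.1%, did not reach the SST range. In SST cKO it was 85.2 ± 0.258%.

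Of the 3 related genes, Atp5s, a factor that couples ATP synthase, was 15, 14.7, 14.9 and 14.6 CPM in WT CamK, 15, 13.2, 11.5 and 13.2 in WT Grik, and 22.1, 22.7, 20.6 and 21.3 in WT SST. The SST libraries were apart from all others (log2 fold change 0.55 over CamK and 0.71 over Grik). Ndufa4l2, a paralog of Ndufa4, was under 0.5 CPM in all WT groups and higher in SST by 1.51 on the log2 scale over CamK and 1.13 over Grik, and neither difference passed with the non-neuronal score as a covariate. Cox7a2l, which holds supercomplexes together, was 98.3 CPM in WT CamK and 101 in WT Grik and passed in no comparison.

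The CamK differences moved with transcript length, in the set and in other genes. The transcripts of 87 tested genes outside the restricted isoforms had a median of 934 bases (371 to 4715), and 34 of them (39.1%) were up to 750 bases, against 2.17% of other protein-coding genes, whose median was 3029. Of CamK against Grik, the median log2 fold change was 0.26 for the 34 genes up to 750 bases, 0.12 for the 31 up to 1500 and 0.03 for the 22 above. Other genes of these lengths had 0.26, 0.17 and -0.05. Of SST against CamK the set had 0, 0.09 and 0.29 and other genes -0.14, -0.06 and 0.05. Across the 87 genes, Spearman's rho with length was -0.59 and 0.48 in these comparisons, against -0.16 and 0.05 over 15209 other genes, as a description, since genes are not independent replicates.

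SST against Grik showed no such order. The medians of the set were 0.25, 0.22 and 0.27 in the 3 length classes, where other genes had 0.10, 0.07 and -0.01, and rho was 0.04. In these classes 55.9, 54.8 and 81.8% of the set were higher in SST, against 29.1, 32.2 and 30.6% of other genes. With an offset for transcript length in the fit, added after seeing the data, 11 genes were higher and 18 lower in CamK than in Grik (20.3 and 21.4% of all genes), and 58 were higher and 5 lower in SST than in CamK (33.2 and 28.0%). In SST against Grik it gave 56 higher and 1 lower (31.3 and 27.4%), 55 of them calls shared with the fit without it.

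**Figure D5:**
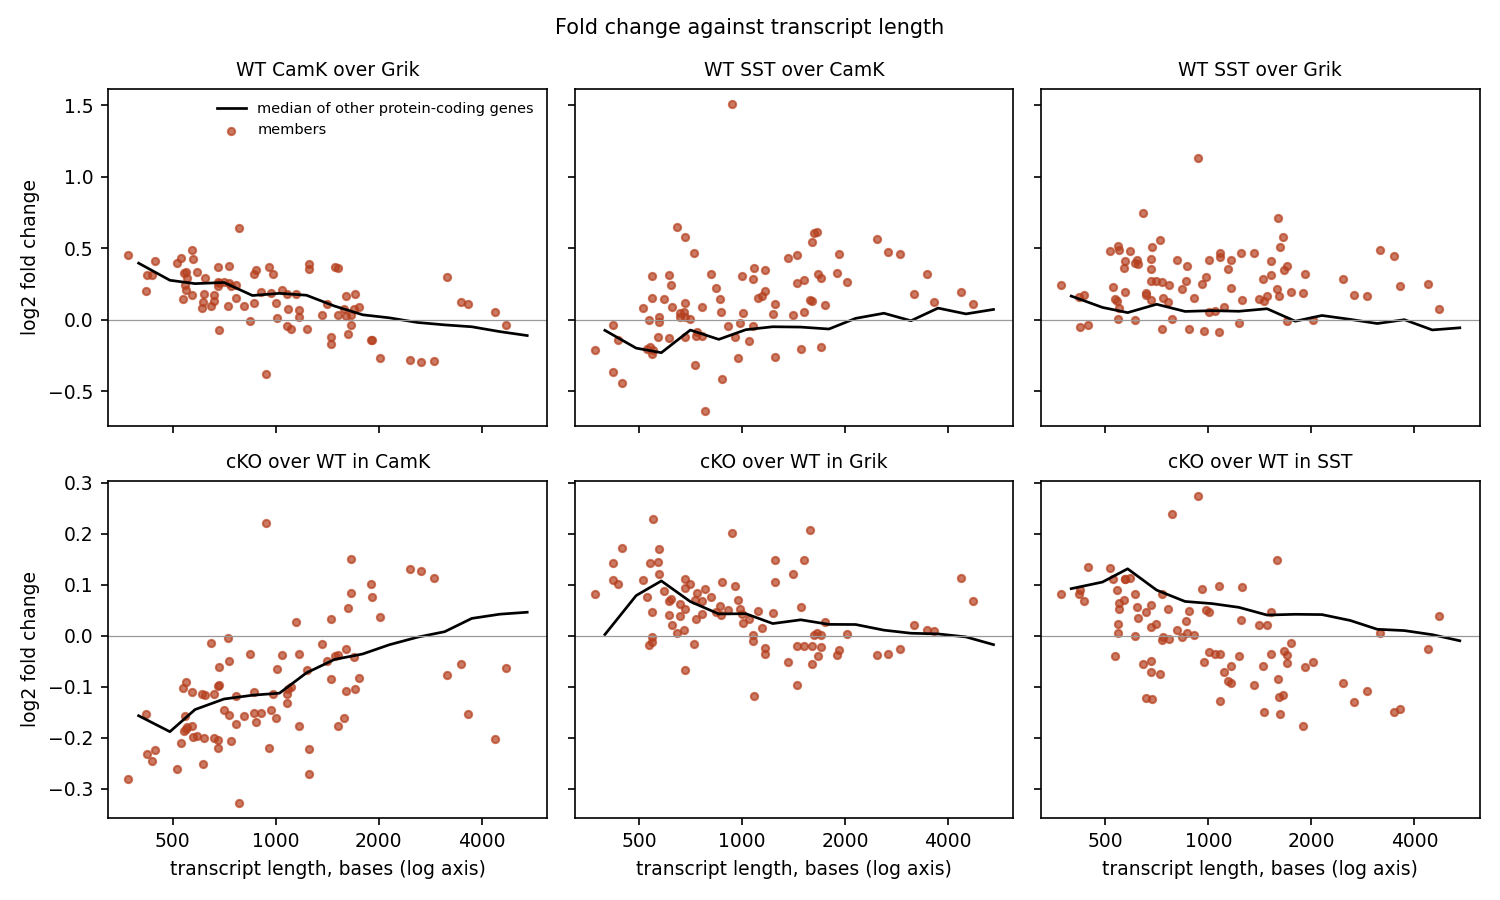
Log2 fold change against transcript length in bases (log axis) for 87 genes of the set (dots), with a line for the median of other protein-coding genes in length bins, in the 3 WT comparisons (top) and the 3 genotype comparisons (bottom). In CamK against Grik the shorter genes lie higher (median 0.26 up to 750 bases), and in SST against Grik most dots lie above the line in every length class.

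The genotype comparisons set the libraries labelled cKO for SLM2 against WT in each population. Khdrbs3 was still 278 CPM in CamK cKO (373 in WT) and 93.8 in SST cKO (130 in WT). The deleted exons are not given, so the extent of the loss is not known from these counts in any population. By edgeR, DESeq2 and limma-voom, 0 of the 93 genes passed an adjusted p of 0.05 in CamK, in Grik or in SST, where the background was 0.0106% of all genes higher and 0% lower in CamK, the same in Grik, and 0% higher and 0.0106% lower in SST. Before adjustment, a p under 0.05 by edgeR was reached by 13 of 93 in CamK (1327 of all 18823), 1 in Grik (919) and 2 in SST (1102). DESeq2 gave 10 (1477 of all genes) and limma-voom 2 (1351) in CamK. For the 76 subunits of complexes I to V outside the restricted isoforms, log2 fold changes lay between -0.28 and 0.15 for CamK, -0.07 and 0.23 for Grik, and -0.18 and 0.15 for SST, with a median SE of 0.09, 0.08 and 0.08.

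In CamK most genes leaned to lower values in the cKO libraries, with 79 of 93 below 0 and a median of -0.11, where all genes had a median of 0. With the offset for transcript length the median was -0.02 and 40 of 93 lay above 0. Without this offset, 31 of 36 genes of complex I, all 8 assembly factors and 7 of 9 of complex III lay below 0. So did 15 of 17 of complex IV and 14 of 16 of complex V, but 2 of 4 of complex II. Much of this lean was shared by other genes of like length: in the classes up to 750, up to 1500 and over 1500 bases, 100, 90.3 and 59.1% of the set lay below 0, against 77.6, 71.2 and 44.7% of other genes. Ndufc1, an accessory subunit of complex I, had the lowest p: it was 59.4, 52.2, 58 and 64.4 CPM in WT and 48.5, 45 and 51.9 in cKO, without overlap, yet it did not pass (log2 fold change -0.27, adjusted p = 0.643, edgeR). Cox6b1 (-0.20, adjusted p = 0.66) and Ndufaf5 (-0.18, adjusted p = 0.665) followed. The number with an unadjusted p under 0.05 was 0 without CamK cKO replicate 5 (1023 of all genes), 23 without Grik WT replicate 6 (1369) and 40 with the replicate number as a block (1763). It was 3 with the offset for length (1243), and by length class the medians were -0.18, -0.11 and -0.04, where other genes had -0.14, -0.08 and 0.02. The non-neuronal score also differed, at 0.58 to 1.41 in the CamK cKO libraries against -0.59 to 0.58 in WT, and its part in the lean was not tested.

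Grik and SST leaned less. In Grik 66 of 93 genes lay above 0, with a median of 0.04, and the 3 with the lowest p were Cox8b (-2.13, adjusted p = 0.992, edgeR), Ndufv3 (0.21) and Cox6a2 (-0.73), of which Cox8b and Cox6a2 are near 0 there. Khdrbs3 was even higher in the Grik libraries labelled cKO than in WT, so here too the values compare labels and not a known loss of the target. In SST 49 of 93 genes lay above 0, with a median of 0.01. Uqcrc2, a core subunit of complex III, was 416, 424, 387 and 407 CPM in WT SST and 360, 392, 358 and 335 in SST cKO, where 1 cKO library lay inside the WT range (log2 fold change -0.18, adjusted p = 0.833, edgeR). Ndufaf1 (-0.15) and Atp5f1 (-0.12) came next. Without Grik WT replicate 6 the unadjusted count in Grik was 15 (1481 of all genes), and without SST cKO replicate 3 it was 9 in SST (1270), where the offset for length gave 10 (1203).

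The differences of the genotype effect between populations also passed in 0 of the 93 genes by edgeR, DESeq2 and limma-voom. The background was 0% higher and 0.00531% lower for CamK minus Grik, 0% in both directions for SST minus CamK, and 0% higher and 0.0106% lower for SST minus Grik. Before adjustment, 18, 16 and 2 of 93 genes had a p under 0.05, against 1223, 1477 and 727 of all genes. The lowest p belonged to Ndufc1 (-0.42, adjusted p = 0.7), Ndufb2 (-0.32) and Cox6b1 (-0.27) for CamK minus Grik, to Uqcrc2 (-0.28), Ndufa3 (0.39) and Ndufa6 (0.31) for SST minus CamK, and to Cox8b (3.21), Cox6a2 (0.95) and Uqcrc2 (-0.14) for SST minus Grik.

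The mitochondrial genome encodes 13 subunits that join these complexes, of which 8 had enough reads to be tested. In WT SST, 8 of 8 were higher than in WT Grik and 6 of 8 higher than in WT CamK, and 0 passed between CamK and Grik, where 29.2, 30.5 and 20.9% of all genes were higher. The most abundant, mt-Co1, the catalytic subunit of complex IV, was 17.9 ± 7.32 CPM in WT CamK, 18.9 ± 8.37 in WT Grik and 56.2 ± 18.5 in WT SST (n = 4 each), a log2 fold change of 1.65 (adjusted p = 0.0264, edgeR) over CamK and 1.57 (adjusted p = 0.0355) over Grik. Together the mitochondrial genes summed to 70.8, 163, 146 and 135 CPM in WT SST, where the non-neuronal score was 2.03, 2.93, 2.43 and 2.56, 49.7, 56.7, 20.6 and 25.6 in WT CamK, and 36.4, 21.2, 35.7 and 62.0 in WT Grik. These sums averaged 0.727, 0.261 and 0.261% of those of the nuclear subunits of complexes I to V without the restricted isoforms. The genes mt-Co2, mt-Co3 and mt-Atp6 were at or near 0, so no level of mitochondrial RNA per cell is read from these sums. In SST cKO the sum was 120, 65.6, 378 and 1014 CPM, with 2 libraries above the WT range, 1 below it and 1 within it. The non-neuronal score of the same libraries was 2.48, 1.96, 3.15 and 3.26, in the same order as the sums, and its part in them was not tested. Of the 8 genes, 7 had an unadjusted p under 0.05 in SST cKO against WT and 0 passed (edgeR, adjusted p = 0.833 for mt-Co1). The nuclear genes did not follow, since the summed CPM of all 94 was 17759 ± 581 in SST cKO and 18189 ± 713 in WT SST.

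Lists of other metabolic genes are given beside the set, to be read against the shares of all genes: 30.5% higher and 29.5% lower in SST than in CamK, 29.2 and 28.1% in SST against Grik, and 20.9 and 21.1% in CamK against Grik. Of 17 citric acid cycle genes, 14 were higher and 0 lower in SST than in CamK, with a median of 0.42, and 9 higher and 1 lower than in Grik, the latter Dlat (-0.35), while 1 was higher and 10 lower in CamK than in Grik. Of 17 glycolysis genes, 8 were higher and 3 lower in SST than in CamK, but 3 were higher and 10 lower than in Grik. Ldhb, the heart form of lactate dehydrogenase, was 923 ± 36.0 CPM in WT SST and 222 ± 14.6 in WT Grik (log2 fold change 2.06), and Aldoc, which is also 1 of the astrocyte markers in the non-neuronal list, rose by 1.80. Hk2, a hexokinase, was 0.722 ± 0.171 and 15 ± 1.05 (-4.38), and Pfkl fell by 1.80.

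Regulators of mitochondrial genes were split. Of 16 such regulators, 7 were higher and 7 lower in SST than in CamK, and 6 higher and 6 lower than in Grik. Ppargc1a, a coactivator of mitochondrial biogenesis, was 51.0 ± 4.55 CPM in WT CamK, 42.8 ± 3.96 in WT Grik and 155 ± 18.4 in WT SST (log2 fold change of SST 1.60 and 1.85). Esrrg, an estrogen-related receptor, was 14 ± 1.22, 10.5 ± 0.301 and 96.1 ± 11.1 (2.77 and 3.19), and Esrrb was higher in SST than in CamK by 3.71. Nrf1, whose motif is described above, and Gabpa were lower in SST than in CamK, with log2 fold changes of -0.60 and -0.59, and Polg and Yy1 were lower in SST than in Grik, at -0.56 and -0.55. Of 19 import and carrier genes, 11 were higher and 2 lower in SST than in CamK, among them Hspa9 and Phb at 0.75 each, and 8 higher and 2 lower than in Grik. Of 42 tested assembly factors of complexes I to V outside the set, 21 were higher and 4 lower in SST than in Grik, with Cmc2 at 0.80 and Uqcc1 at 0.68, and 18 were higher and 7 lower than in CamK, with Coa7 at -0.74.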

How the data were processed

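Hippocampal polyA RNA gave 23 libraries. The authors deposited whole-number read counts per gene; per the submitters' processing notes, Trimmomatic, STAR and GRCm38 were used, and versions, annotation and strand setting are not given in the sources used here. Summary entries that name no gene, 12.4 to 18.4% of the table's reads per library, were left out. Symbols, positions and lengths come from GENCODE M21 (45143 of 45706 IDs matched). Levels per kb use the length of the principal transcript, in place of the planned exon union. Among the 94 genes, 5 have named pseudogenes (Ndufab1, Uqcrh, Atp5c1, Atp5k and Atp5l) and 12 share over 10% of exon bases with another gene, so their counts are uncertain. A further 11 pseudogenes with matching symbols were not counted.

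Genes kept by filterByExpr (18823) were fitted over all 23 libraries in 6 groups by edgeR 4.0.16 (R 4.3.3; glmQLFit, robust, TMM scaling, 17 residual degrees of freedom; common biological coefficient of variation 16.3%), with Benjamini-Hochberg adjustment over all genes and a threshold of 0.05. CPM values are TMM scaled. The functions were tested on simulated data. Alternatives were other scalings, filters, DESeq2 1.42.0, limma-voom (limma 3.58.1), thinning, fits of the compared populations alone, a replicate block, a non-neuronal score, offsets for length or GC, and leaving out each library. Genes are named if they are core, electron-carrying or paralogous subunits, the 5 largest called changes per direction with a mean of at least 1 CPM, the largest per complex, or, where none was called, the 3 lowest p-values; other lists by their largest called changes. The set, lists and rules were chosen with earlier results of these data known. The values of 1 named gene were left out.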

Additional observations from a re-analysis of the deposited data

Results flagged for a closer look

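In groups of 4 libraries, the highest or lowest value stood apart from the others by over 0.829 of the group's range in 10 of 220 groups of values examined, where chance gives about 1 in 20, or 11. For sums over genes, complex II was 848 CPM in CamK WT replicate 3 (907 to 917 in the other libraries of its group), complex V was 6710 CPM in Grik WT replicate 6 (5857 to 5975 in the others), the restricted isoforms of complex IV were 28.6 CPM in SST cKO replicate 7 (22.4 to 23.4), and all 94 genes were 17122 CPM in SST WT replicate 3 (18482 to 18588). For single genes, Atp5b was 2137 CPM in Grik WT replicate 6 (1867 to 1893), Cox6a1 was 190 CPM in Grik cKO replicate 2 (166 to 169) and Cox8a was 249 CPM in SST WT replicate 1 (184 to 192). Cox6a2 was 23.4 CPM in SST WT replicate 2 (16.1 to 17.2) and 24.8 CPM in SST cKO replicate 7 (19.9 to 20.6), and Cox6b2 was 0.851 CPM in the latter library (0.468 to 0.512).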

How the results depend on the processing

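Of the counts of called genes, 511 alternative values stayed within 1.5 times the reported count and 14 did not. The 511 include the genotype counts and their differences, which were 0 and stayed 0, and many fits that left out only 1 library. Their number is therefore no measure of how stable the WT counts are. In CamK against Grik, the genes called higher were 51 without scaling factors, 2 with the non-neuronal score and 11 with the length offset, and those called lower were 5 with a filter of at least 1 CPM in at least 3 libraries and 18 with the length offset; the total with the non-neuronal score was 8. In SST against CamK, the non-neuronal score gave 20 in total, 20 higher and 0 lower, and the length offset 58 higher and 5 lower. In SST against Grik the length offset gave 1 lower. Cox6b1 in CamK against Grik reversed to -0.06 (adjusted p = 0.329) with the length offset. Of the medians, 308 values moved by less than the spread and 7 by more: without scaling factors to 0.24 in CamK against Grik and 0.38 in SST against Grik, and with the length offset to -0.01 and 0.22 in CamK against Grik and SST against CamK, -0.02 for cKO in CamK, -0.01 for CamK minus Grik and -0.03 for SST minus CamK. The cause of these changes was not tested.

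Leaving out 1 library at a time gave 28 to 55 calls in CamK against Grik (22 to 48 higher, 5 to 9 lower), 43 to 50 in SST against CamK (34 to 39 higher, 5 to 13 lower), 47 to 62 higher and 0 lower in SST against Grik, and 0 in all genotype comparisons and their differences. The 5 lower calls came without Grik WT replicate 4 in the first and without SST WT replicate 3 in the next. With the replicate block, 44 and 7, 36 and 11, and 57 and 0 genes were higher and lower in the WT comparisons and 0 in the others. Over all genes tested, libraries with the same number did not deviate together (correlations -0.08 to 0.10). Few numbers are shared between any pair of groups, so whether the numbers pair the samples cannot be told from this. DESeq2 gave 33 and 10, 41 and 9, and 58 and 0, and limma-voom 39 and 7, 40 and 9, and 66 and 0. For single genes 3207 values kept direction and call, 136 kept the direction alone and 1 reversed. Depth limits the isoforms with few reads (Cox4i2, Cox8b, Cox6b2, Cox7b2 and Ndufa4l2).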
